A study of Mus musculus with 24 samples.

Results

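Mutant transgenic mouse hearts labelled as treated with the M7.8L shRNA virus were compared with mutant hearts labelled as given the control virus, gene by gene, in polyA RNA. The comparison took the 7 polyA libraries carrying those 2 treatment labels (4 shRNA, replicates 5 to 8; 3 control virus, replicates 1 to 3) out of 13 polyA libraries and 24 samples in all. All mice were on a CD1 background and said to carry a human MYL2 transgene, mutated in the mutants. Mutant and wild type were told apart by the sample names alone, since every sample has the same genotype label, RLC-47K L6. The virus was AAV9, an adeno-associated virus that reaches heart muscle. The treating virus carried an H1-driven M7.8L shRNA and an RSV promoter driving the fluorescent protein Cerulean, and the control virus did not express the shRNA. Pups received it through the jugular vein when 3 days old, and RNA came from the heart at 4 months. The other 6 polyA libraries, 3 untreated mutants (replicates 9 to 11) and 3 wild-type transgenic hearts carrying the normal human allele with control virus (replicates 2 to 4), entered the fit and serve as levels for reference. The promoter of the transgene is unnamed in the labels. They number the hearts but do not say whether litters or injection days were shared, so the p-values measure the spread between these samples.

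Myosin regulatory light chain, the product of Myl2, binds the neck of the myosin head and tunes how the ventricular sarcomere contracts. Mutations in the human gene are a known cause of inherited hypertrophic cardiomyopathy, in which the ventricle thickens and stiffens. A short hairpin RNA is processed into a small RNA that directs the cleavage of a matching messenger RNA, so that a mutant transcript can be lowered. Stressed ventricles are known to re-express fetal genes such as Nppa and Myh7, to lay down matrix and to lower the enzymes of fatty acid oxidation.

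Levels are FPKM (fragments counted per transcript length and library size, so that genes can be compared) divided by a factor for each library that aligns the medians of 13875 genes above 0 in every library. These factors ran from 0.792 to 1.10 in the control virus libraries and from 0.900 to 1.76 in those labelled shRNA, the highest being replicate 8. Steps in the low values put the relative depth at 1.30 to 2.30 in the control virus libraries and 1 to 1.60 in those labelled shRNA, where 1 is the depth of replicate 5; the absolute depth is unknown. For each gene, the levels of control virus replicates 1, 2 and 3 come first and those of replicates 5, 6, 7 and 8 labelled shRNA follow, in that order. Differences are log2 changes on the log2(aligned FPKM + 1) scale, labelled shRNA minus control virus, ± SE, with limma's adjusted p over all 12980 genes tested. The added 1 makes changes of low genes look smaller.

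Libraries labelled shRNA did not form 1 group. The row for the human gene, hMyl2, stood at 254, 305 and 258 aligned FPKM in replicates 5, 6 and 7 and was listed at 0 in replicate 8 and in the other 9 libraries. A further row, for the shRNA, was at 0 in every one of the 13. Mouse Myl2 stood at 12450.5, 13131 and 13705 against 28896, 37632, 27760.1 and 12494, so replicates 5, 6 and 7 lay above all controls and replicate 8 lay at the low end of the control range. Wild-type hearts held 24327 to 27488 and untreated mutants 14966 to 16706. The Myl2 difference was 0.92 ± 0.37 (adjusted p = 0.0798) with all 4 libraries, 1.25 ± 0.14 (adjusted p = 1.79e-05) without replicate 8 and 1.41 ± 0.31 (adjusted p = 0.00294) as deposited, before the alignment.

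Six3, a homeobox transcription factor of eye and forebrain development, split the libraries in the same way. It stood at 26.9, 25.2 and 30.7 against 0, 0.0663, 0 and 34.5, at 19.8 to 31.9 in untreated mutants and at 0 to 0.0854 in wild-type hearts. Replicates 5, 6 and 7 therefore had the Six3 level of the wild-type hearts, and replicate 8 lay slightly above the mutants. Its antisense neighbour Six3os1 read 5.88, 4.6 and 6.11 against 0, 0.0544, 0 and 7.5. Since the labels' protocols do not state that counting used strand, reads of this pair cannot be told apart.

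Sex moved with the label in all libraries but replicate 8. The Y-linked helicase Ddx3y stood at 0.0616, 0 and 0 against 71.5, 64.5, 71.3 and 0, which puts all 3 control hearts and replicate 8 with the females and replicates 5, 6 and 7 with the males. Xist, the X-inactivation transcript, read 81.7, 40.5 and 47.3 against 0.195, 0.247, 0.317 and 70.3. The ribosomal precursor Rn45s, whose many copies make its level uncertain, was listed at 0 in the 3 controls and in replicate 8 and stood at 18082, 16358 and 17061 in replicates 5, 6 and 7. It was also at 0 in 1 untreated and 1 wild-type library. Whether the labels of these libraries are right was not tested, which bears on every difference given: hMyl2 was at 0 in 10 of 13 libraries said to carry the transgene. Because of this split results are given with all 4 libraries labelled shRNA and without replicate 8, and the treatment is written as labelled.

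**Figure D1:**
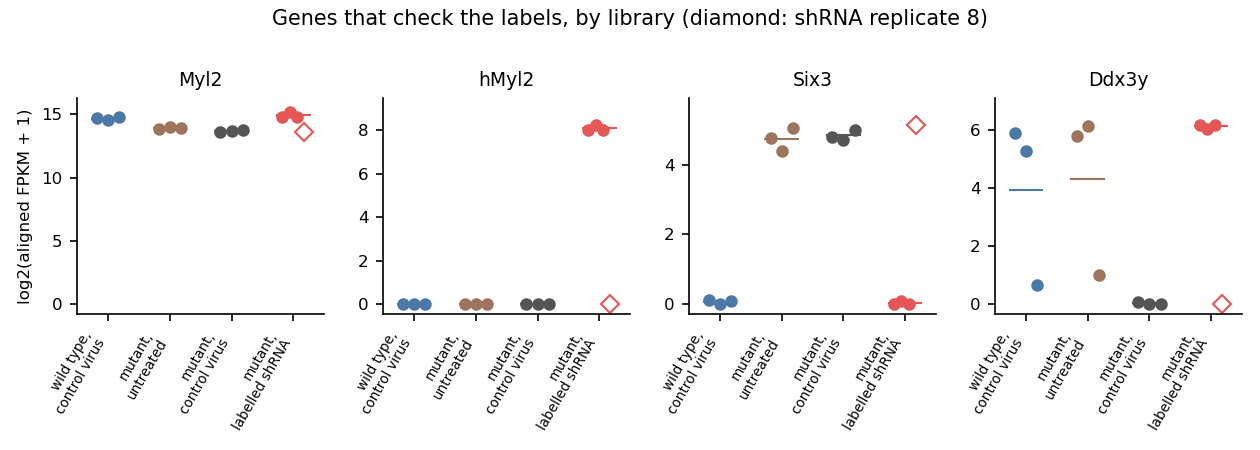
Levels of Myl2, hMyl2, Six3 and Ddx3y as log2(aligned FPKM + 1) in each of 13 libraries by group; circles are libraries, the diamond is shRNA replicate 8, and the line is the mean of the circles. Replicates 5 to 7 have hMyl2 and Ddx3y and lack Six3, while the diamond lies with the control virus mutants in all 4 panels.

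With all 4 libraries, 3159 genes passed at an adjusted p under 0.05 in limma: 1637 were higher in the hearts labelled shRNA (12.6% of those tested) and 1522 were lower (11.7%). Without replicate 8 the count was 6348, with 3477 higher (26.8%) and 2871 lower (22.1%), and 3158 of the 3159 were among them in the same direction. Counts of list members given below are to be read beside these shares of all genes. Leaving out any other library of the comparison brought the count down to between 510 (without control virus replicate 1) and 745 (without shRNA replicate 7): 514 without shRNA replicate 5, 727 without 6, 540 without control virus replicate 2 and 543 without 3. The 291 genes that passed whichever library was left out split into 106 higher and 185 lower. Of 99 of the genes described here 78 passed with all 4. The 24 of them that passed whichever library was left out are named as such (Chac1, an ATF4 target, is one). The others of the 78 lost the call without at least 1 of the other 6 libraries. When the 7 libraries were fitted alone, so that the other 6 no longer contributed to the shared spread, 32 genes passed with all 4 (4148 at an unadjusted p under 0.05) and 5894 without replicate 8. Sex as a covariate left 34 with all 4 (2376 at an unadjusted p under 0.05). Without replicate 8 that covariate left 2223 higher (17.1%) and 1669 lower (12.9%), and 3732 of these 3892 were called in the same direction without it. Without replicate 8 every control is female and every library labelled shRNA male. The sex term then came only from the untreated and wild-type hearts, and sex and label cannot be told apart among the hearts compared. With all 4, replicate 8 also set that term, as the only female labelled shRNA.

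Values as deposited, with no alignment, gave another balance of directions. With all 4 libraries 4330 genes were then higher (33.4%) and 215 lower (1.66%), so 95.3% of the calls were higher, against 51.8% after alignment. Without replicate 8 the deposited values gave 3952 higher (30.4%) and 1161 lower (8.94%). The median log2 difference over all genes tested was 0.47 as deposited and 0.03 aligned with all 4, and 0.34 and 0.04 without replicate 8. Changes are given relative to the aligned median. Which scale is right was not tested. As deposited fewer members of the lists that fell passed with all 4: of the collagens 5 in place of 16, of the other matrix genes 12 in place of 27, of the hypertrophy genes 7 in place of 13, and of the macrophage markers 2 in place of 11. The fibroblast markers gave 2 in place of 11, complement 2 in place of 12, antigen presentation 3 in place of 11, heat shock genes 2 in place of 10, cell cycle genes 0 in place of 8 and interferon response genes 0 in place of 5. The median went from -0.53 to -0.04 for the heat shock genes and from -0.39 to 0.0021 for the growth and stress cytokines. Among lists that rose, oxidative phosphorylation gave 46 in place of 30 and sarcomere 22 in place of 7. Without replicate 8, 15 collagens fell as deposited against 19 aligned. Matrix gave 27 against 31, macrophage 16 against 17 and complement 14 against 15. Fibroblast gave 7 against 14, heat shock 4 against 12, cell cycle 6 against 15 and interferon 4 against 20.

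**Figure D2:**
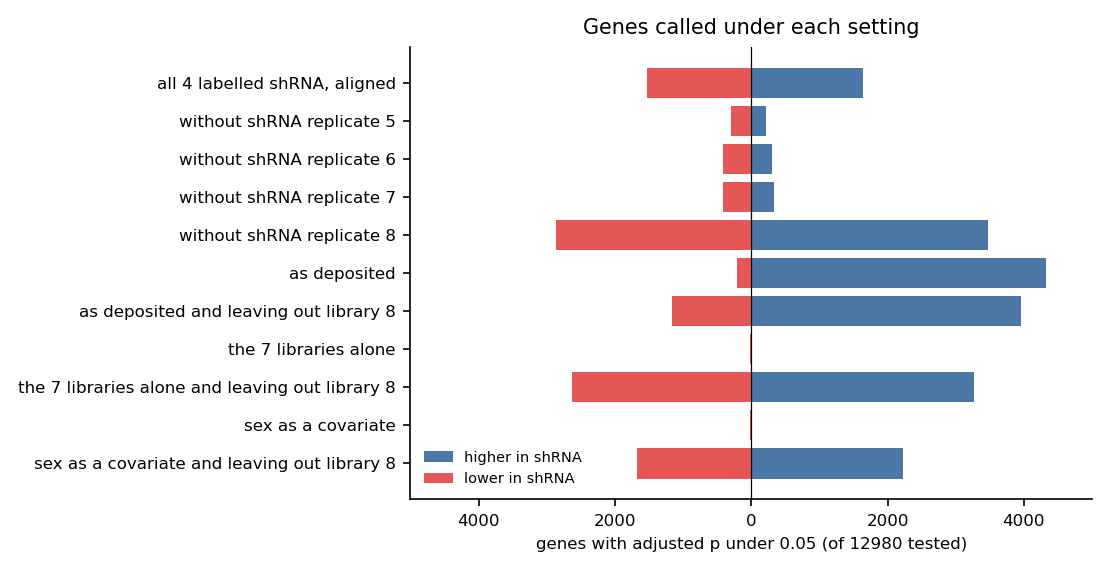
Number of genes with an adjusted p under 0.05 that were higher (blue, right) or lower (red, left) in hearts labelled shRNA, under 11 settings. Leaving out replicate 8 raises the count from 3159 to 6348, and leaving out replicate 5, 6 or 7 lowers it to between 514 and 745.

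The place of replicate 8 was measured for the genes that passed without it and whose groups did not then overlap, 3343 higher (25.8% of those tested) and 2771 lower (21.3%). Of the higher genes, replicate 8 lay at or below the highest control in 68.5%, between the groups in 26.7% and at or beyond the lowest of replicates 5 to 7 in 4.85%. Of the lower genes the corresponding shares were 56.4%, 36.6% and 7%. On a scale from 0 (control mean) to 1 (mean of replicates 5 to 7), its median position was 0.0435 for higher and 0.139 for lower genes. By list, replicate 8 lay beyond every control in the same direction as the other 3 for 1 of 46 oxidative phosphorylation genes and 3 of 29 fatty acid oxidation genes, but for 14 of 19 collagens, 11 of 14 heat shock genes and 8 of 10 endothelial markers. Further lists did not keep to that contrast. The counts were 14 of 31 matrix genes, 5 of 14 complement genes, 4 of 19 macrophage markers and 1 of 15 chemokine genes. Amino acid catabolism gave 7 of 20. These counts are a description, and their differences were not tested.

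**Figure D3:**
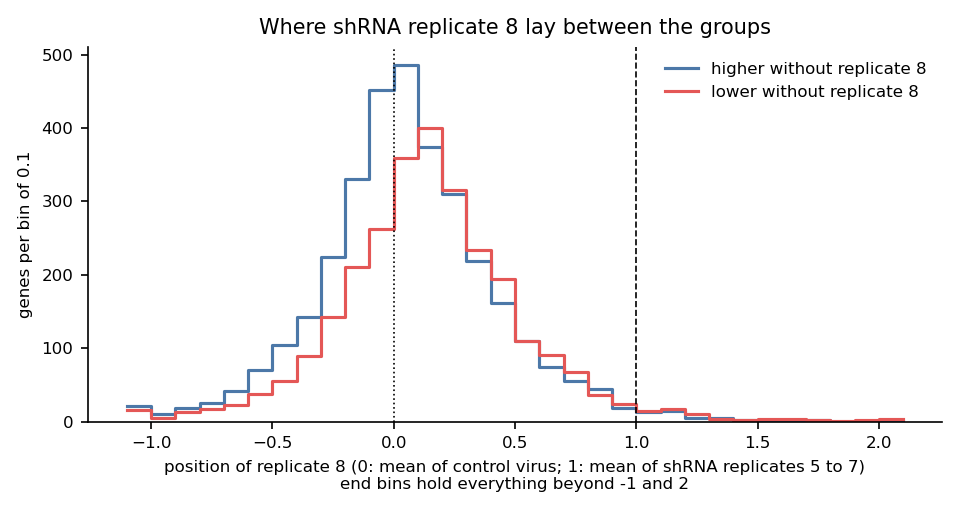
Position of shRNA replicate 8 between the control virus mean (0, dotted) and the mean of replicates 5 to 7 (1, dashed), as the number of genes per bin, for genes higher (blue) or lower (red) without it and with groups apart. Both peaks lie near the controls, the red one slightly further toward the other 3 libraries, with medians of 0.0435 and 0.139.

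Hypertrophy and fetal genes were lower in the hearts labelled shRNA. Of 24 tested members of that list, 13 fell and 0 rose with all 4 libraries, and 16 fell and 2 rose without replicate 8; the list's median difference was -0.99 and -1.26. Nppa, which encodes atrial natriuretic peptide, stood at 44953, 42615 and 23616 against 1291, 750.5, 1884 and 24256 aligned FPKM. Replicates 5, 6 and 7 lay far below every control and inside or below the wild-type range of 1247 to 3358, and replicate 8 lay within the control range. Nppa fell by 3.79 ± 0.90 (adjusted p = 0.0196) with all 4 and by 4.87 ± 0.39 (adjusted p = 1.1e-06) without replicate 8, the latter a 29.1-fold drop. Nppb, the B-type peptide, read 3382, 3831 and 2383 against 226, 198, 719 and 3194, a difference of -2.46 ± 0.73 (adjusted p = 0.0322) with all 4 and -3.30 ± 0.39 (adjusted p = 2.47e-05) without replicate 8. Myh7, the slow beta-myosin heavy chain, stood at 2224, 1531 and 2096 against 228, 414, 501 and 2481. It passed with all 4 only narrowly, at -1.72 ± 0.58 (adjusted p = 0.0489), and not as deposited (adjusted p = 0.13), while without replicate 8 it fell by 2.41 ± 0.26 (adjusted p = 1.16e-05). The fast chain Myh6 was listed at 0 in 3 libraries, control virus replicate 3 among them, so no change is given for it.

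Replicate 8 did not sit with the controls for every hypertrophy gene. Acta1, skeletal alpha-actin, stood at 1517, 1449.6 and 1624 against 196, 92.7, 478 and 486, with all 4 libraries below every control, and differed by -2.58 ± 0.65 (adjusted p = 0.0216) and, without replicate 8, by -2.89 ± 0.64 (adjusted p = 0.00257). Wild-type hearts held 819 to 3440.2, so the hearts labelled shRNA lay below those too. Rcan1, an inhibitor of calcineurin that calcineurin itself induces, stood at 653, 654 and 531 against 117, 132, 115 and 420.2 and fell by 1.88 ± 0.35 (adjusted p = 0.0111), whichever single library was left out; replicate 8 lay under the lowest control. Ankrd1, a stretch-responsive ankyrin repeat protein of the sarcomere, read 9184, 10482 and 8011 against 1827, 1611, 1944 and 8743, with replicate 8 inside the control range. It fell by 1.78 ± 0.47 (adjusted p = 0.0233) with all 4, but did not pass as deposited (adjusted p = 0.0634). Myl4, the atrial essential light chain that the fetal ventricle also uses, read 12.2, 17.4 and 12.5 against 1.07, 3.17, 2.31 and 7.36 and fell by 1.92 ± 0.35 (adjusted p = 0.0105), whichever library was left out. Uchl1, a ubiquitin hydrolase best known from neurons, stood at 84.9, 78.4 and 101 against 2.28, 4.01, 2.11 and 28.9 and fell by 3.83 ± 0.63 (adjusted p = 0.00821) whichever library was left out, with replicate 8 between the groups.

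Nppa and Myl4 are also genes of atrial muscle, and the labels name the heart without naming a chamber. Of 13 atrial markers tested, 5 fell and 2 rose with all 4 libraries, beside 11.7% and 12.6% of all genes. Those that fell were Nppa, Myl4, Sln, Dkk3 and Pam, and those that rose were Kcnj3 and Kcnj5. The list's median was -0.22 aligned and 0.10 as deposited. Their summed level, mostly Nppa, ran from 25160 to 46460 in the controls and from 1295 to 2482 in replicates 5 to 7, and was 25700 in replicate 8. Myl7, the light chain that defines atrial muscle, was near 0 throughout, at 2.62, 2.03 and 1.34 against 1.31, 1.93, 1.82 and 1.23. Its groups overlapped and it did not pass, at -0.21 ± 0.35 (adjusted p = 0.683). Sln, also low, read 1.39, 2.52 and 4.27 against 0, 0, 0.757 and 0.508 and fell by 1.47 (adjusted p = 0.0148). Bmp10 read 2.75, 2.3 and 3.755 against 0.213, 0, 0.394 and 12.4. It did not pass with all 4 (adjusted p = 0.39) and fell by 1.71 without replicate 8 (adjusted p = 0.000274). None of the 13 was at 0 in all 7 libraries.

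Sarcomere genes mostly rose in replicates 5 to 7. Of 30 tested, 7 rose and 2 fell with all 4, beside 12.6% and 11.7% of all genes. Without replicate 8, 19 rose and 2 fell, beside 26.8% and 22.1%. The pair that fell was Myh7 and Tpm2 in either fit. Tpm2, beta-tropomyosin, stood at 75.9, 80.7 and 59.6 against 9.9, 10.7, 11.6 and 28.1 and fell by 2.30 ± 0.34 (adjusted p = 0.00703) whichever library was left out, with all 4 libraries under every control. Tnni3, cardiac troponin I, the inhibitory subunit of the adult heart, read 3816, 4811 and 4499.96 against 12872, 15605, 13296 and 4464. It rose by 1.26 ± 0.36 (adjusted p = 0.03) with all 4 and by 1.67 ± 0.13 (adjusted p = 6.64e-07) without replicate 8, which lay inside the control range. Myl3, the ventricular essential light chain, read 6501, 6547 and 7194 against 17616, 21654, 17356 and 6231, with replicate 8 just under the lowest control. It rose by 1.48 ± 0.12 (adjusted p = 1.57e-06) without replicate 8 and passed narrowly with it (1.08 ± 0.37, adjusted p = 0.0498), but the log2 change of Myl3 did not pass after quantile normalization (adjusted p = 0.0632).

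Kinases of the regulatory light chain differed between themselves. Mylk4 stood at 12, 11.2 and 14.4 against 123, 127, 159 and 21.6 and rose by 2.69 ± 0.51 (adjusted p = 0.0113) whichever library was left out, with replicate 8 above every control. Mylk3, the cardiac light chain kinase, read 471, 394 and 511 against 542, 513, 524 and 463 and did not pass (0.16 ± 0.12, adjusted p = 0.338), but did as deposited (adjusted p = 0.033). Of the defining genes of cardiac muscle, Actc1, cardiac alpha-actin, differed by -0.17 ± 0.26 (adjusted p = 0.662) and Ttn, titin, by 0.26 ± 0.28 (adjusted p = 0.507); Ttn passed as deposited (adjusted p = 0.024). Tnnt2, cardiac troponin T, differed by 0.82 ± 0.30 (adjusted p = 0.0612) with all 4, by 1.09 ± 0.12 (adjusted p = 8.7e-06) without replicate 8 and by 1.30 ± 0.28 (adjusted p = 0.00242) as deposited.

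The start-site sequences of Acta1 and Myl3 are shown because both hold a CArG box, the motif bound by serum response factor, and moved apart. RefSeq windows from 250 bases before to 50 after a start site (GRCm38.p6) were matched by symbol for 9728 of the 12980 tested genes and searched on both strands. The stretches are printed 5′ to 3′ on the gene's strand, and capitals mark the CArG box.
Acta1, chr8:123894779-123894908, minus strand: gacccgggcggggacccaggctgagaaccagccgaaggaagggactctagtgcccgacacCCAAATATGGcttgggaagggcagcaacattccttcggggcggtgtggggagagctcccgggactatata
Myl3, chr9:110763533-110763662, plus strand: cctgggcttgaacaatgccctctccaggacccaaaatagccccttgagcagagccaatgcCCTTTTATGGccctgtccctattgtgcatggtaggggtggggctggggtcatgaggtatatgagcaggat
The box began 73 bases before the start site in Acta1, which fell, and 85 in Myl3, which rose. It was present in 4 of 21 matched hypertrophy genes (19%) and 5 of 25 matched sarcomere genes (20%), lists that moved in opposite directions, beside 1.64% of all matched promoters. Among genes higher without replicate 8 the share was 1.55%, and among those lower 2.05%. A match is a string of letters, not a bound site.

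Secreted growth and stress factors included some of the larger falls. Of 18 tested, 7 fell and 1 rose with all 4, against 9 and 3 without replicate 8. Gdf15, a stress-induced cytokine, stood at 328, 217 and 292 against 2.72, 5.65, 11.1 and 156. Replicate 8 lay below the controls but far above the other 3, and Gdf15 fell by 4.23 ± 0.95 (adjusted p = 0.0164) and by 5.37 ± 0.44 (adjusted p = 1.23e-06) without it. Tgfb2, a TGF-beta ligand, read 89, 97.7 and 55.9 against 6.77, 6.11, 5.62 and 59 and fell by 2.71 ± 0.60 (adjusted p = 0.0162) and 3.48 ± 0.19 (adjusted p = 7.46e-08). Its levels in replicates 5 to 7 were below the wild-type range of 8.69 to 11.1. Ctgf, a matricellular target of TGF-beta and YAP signalling, read 1141, 1022 and 699 against 57.6, 98.6, 98.2 and 592 and fell by 2.78 ± 0.59 (adjusted p = 0.0145) and 3.49 ± 0.26 (adjusted p = 6e-07). Wild-type hearts held 63.2 to 115, a range that replicates 6 and 7 shared.

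Matrix genes fell almost throughout. Of 19 collagen genes tested 16 fell with all 4 libraries and 19 without replicate 8, with 0 rising in either fit and list medians of -1.31 and -1.61. Of 37 other matrix and fibrosis genes 27 fell and 0 rose with all 4, against 31 and 2 without replicate 8. Col3a1, the chain of type III collagen, stood at 405, 479 and 436 against 93.7, 93.4, 71.7 and 274 and fell by 1.93 ± 0.35 (adjusted p = 0.0101), whichever library was left out. Col1a1, of type I collagen, stood at 212, 184 and 212 against 42.6, 34.6, 35.1 and 149 and fell by 1.92 ± 0.40 (adjusted p = 0.0145) and 2.41 ± 0.17 (adjusted p = 3.78e-07). In both, replicate 8 was lower than every control and closer to them than to the other 3. Thbs1, thrombospondin-1, an activator of latent TGF-beta, read 23, 25.3 and 19.3 against 3.76, 2.75, 2.66 and 9.54. All 4 libraries lay below every control, and it passed whichever library was left out and with sex as a covariate, at -2.19 ± 0.31 (adjusted p = 0.00662) without that covariate.

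Other matrix genes left replicate 8 among the controls. Postn, periostin, a protein of activated fibroblasts, read 406, 184 and 143 against 23.4, 24.7, 18.5 and 229 and fell by 2.43 ± 0.69 (adjusted p = 0.0283) and 3.26 ± 0.32 (adjusted p = 4.97e-06). Timp1, an inhibitor of matrix metalloproteases, read 35.8, 141 and 77.2 against 2.13, 1.75, 3.94 and 42.5 and fell by 3.50 ± 0.79 (adjusted p = 0.0169). Mfap4, a microfibril protein, read 180.2, 159 and 139 against 9.57, 12.5, 10.7 and 157 and fell by 2.82 ± 0.72 (adjusted p = 0.022). In all 3 the level of replicate 8 lay inside the control range and that of replicates 5 to 7 at less than the lowest control.

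Markers of the cells that make matrix also fell in most cases, but Col1a2, Dcn and Mfap5 are counted in the lists above as well. Of 18 fibroblast markers 11 fell and 0 rose with all 4, and 14 fell and 1 rose without replicate 8. Among the 7 that did not pass with all 4 were Pdgfra and Tcf21 (adjusted p = 0.0535 and 0.134). Both fell without replicate 8 (adjusted p = 0.000141 and 0.00486). Their summed level was 5457 to 6405 in the controls, 2712 to 3021 in replicates 5 to 7, 4901 in replicate 8 and 2542 to 3076 in wild-type hearts. None of the 18 was at 0 in all 7 libraries. In these bulk samples fewer cells of a type and less RNA per cell cannot be told apart, and the part of cell numbers in the matrix result was not tested. Acta2, smooth muscle alpha-actin, which both myofibroblasts and vessel walls use, stood at 736, 924 and 889 against 38.4, 40, 50.9 and 602 and fell by 3.33 ± 0.76 (adjusted p = 0.017) and 4.28 ± 0.27 (adjusted p = 1.97e-07). Replicates 5 to 7 lay below the wild-type hearts (127 to 263) as well.

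Smooth muscle and pericyte markers did not follow Acta2 as a list. Of 12 tested, 4 rose and 4 fell with all 4, beside 12.6% and 11.7% of all genes. Besides Acta2, Cnn1 fell by 1.91 (adjusted p = 0.00802), Cspg4 by 0.773 (adjusted p = 0.0209) and Tagln by 0.372 (adjusted p = 0.038). Those that rose were Abcc9, Kcnj8, Rgs5 by 0.763 (adjusted p = 0.0222) and Notch3 by 0.662 (adjusted p = 0.0236). Abcc9, the regulatory subunit of the ATP-sensitive potassium channel of muscle and pericytes, rose; it stood at 35.9, 30.5 and 34.9 against 212, 174, 208 and 52.1, a difference of 2.04 ± 0.37 (adjusted p = 0.0101). Its pore subunit Kcnj8 read 18.4, 19.9 and 20.6 against 44.5, 53.9, 36.5 and 31.4 and rose by 1.02 ± 0.16 (adjusted p = 0.00722). Replicate 8 lay above every control for both, and both passed whichever library was left out.

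**Figure D4:**
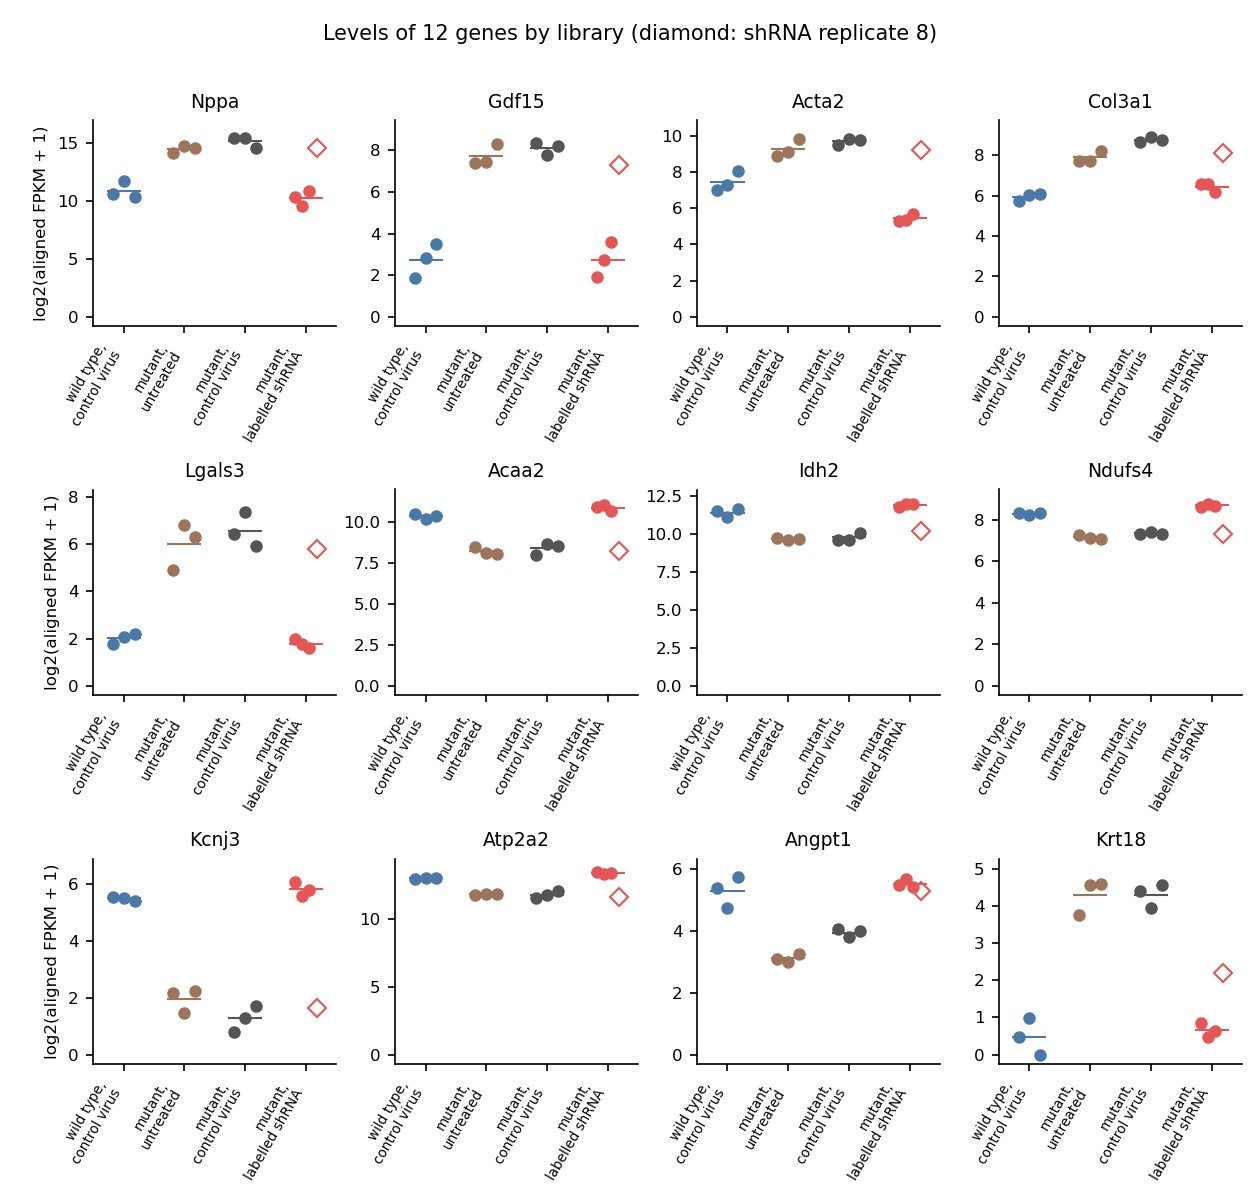
Levels of 12 genes as log2(aligned FPKM + 1) in 13 libraries by group; circles are libraries, lines are means of the circles and the diamond is shRNA replicate 8. The diamond lies near the control virus mutants for Nppa, Acaa2, Ndufs4, Kcnj3 and Atp2a2, between the groups for Krt18, and near replicates 5 to 7 for Angpt1.

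Macrophage markers fell in part. Of 22 tested 11 fell and 2 rose with all 4, and 17 fell and 2 rose without replicate 8. The summed level was 1741 to 2625 in controls, 549.9 to 741.8 in replicates 5 to 7, 2246 in replicate 8 and 654.8 to 679.4 in wild-type hearts. Lgals3, galectin-3, read 84.9, 165 and 59.8 against 2.96, 2.38, 2 and 54.7 and fell by 3.79 ± 0.85 (adjusted p = 0.0166) and by 4.80 ± 0.42 (adjusted p = 2.32e-06) without replicate 8. Gpnmb, a glycoprotein of lipid-laden macrophages, read 43.9, 35.1 and 38.9 against 0.711, 0.705, 0.655 and 29.7 and fell by 3.52 ± 0.80 (adjusted p = 0.0173) and 4.57 ± 0.19 (adjusted p = 1.11e-08). Replicate 8 lay just under the controls for both. The 2 that rose mark macrophages resident in tissue, the scavenger receptor Cd163 by 0.68 (adjusted p = 0.0401) and the phosphatidylserine receptor Timd4 by 0.58 (adjusted p = 0.0412). Timd4 was low, at 0.978, 1.37 and 1.39 against 2.26, 2.83, 2.3 and 2.08. Lyve1 and Folr2, also resident markers, did not pass (adjusted p = 0.444 and 0.849). Mrc1, another such marker, did not pass with all 4 (adjusted p = 0.0552) but fell by 1.05 without replicate 8 (adjusted p = 5.8e-05). With sex as a covariate and without replicate 8, neither the log2 change of Cd163 nor the log2 change of Timd4 passed (adjusted p = 0.285 and 0.104).

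Genes of immune recognition were lower too. Of 19 antigen presentation genes 11 fell with all 4 and 17 without replicate 8, of 15 complement genes 12 and 15, and 0 of either list rose. The complement genes C1qa, C1qb and C1qc, which fell in either fit, are counted among the macrophage markers as well. H2-Ab1, a chain of MHC class II, stood at 181, 369 and 215 against 44.4, 66.8, 31.2 and 179 and fell by 1.91 ± 0.46 (adjusted p = 0.0196; 2.32e-05 without replicate 8), with replicate 8 just under the lowest control. C4b, complement C4, stood at 15.8, 33.1 and 22 against 3.97, 2.17, 3.78 and 10.8 and fell by 2.11 ± 0.38 (adjusted p = 0.0101) whichever library was left out. Of 33 interferon response genes 5 fell with all 4, a share near the 11.7% of all genes, and 20 without replicate 8, but 4 without replicate 8 with sex as a covariate. Chemokine and inflammation genes fell in 10 of 24 cases with all 4 and 15 without replicate 8. Ccl8, a monocyte chemokine, fell; it read 18.1, 73 and 74.4 against 1.68, 2.47, 0.781 and 21.5, a difference of -3.43 ± 0.72 (adjusted p = 0.0145). The eosinophil chemokine Ccl11 went the other way in replicates 5 to 7. It read 0, 2.97 and 2.12 against 19.3, 18.3, 16.3 and 0.516. With all 4 it did not pass (adjusted p = 0.0617), while without replicate 8 it did, at 3.03 ± 0.39 (adjusted p = 4.09e-05), as it did as deposited (adjusted p = 0.0112).

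Endothelial markers were higher. Of 18 tested 8 rose and 0 fell with all 4, and 11 rose and 0 fell without replicate 8, with list medians of 0.40 and 0.45. Over all genes 12.6% were higher with all 4 and 26.8% without replicate 8. Cdh5, the cadherin of endothelial junctions, stood at 89.3, 66.1 and 74 against 143, 141, 126 and 107 and rose by 0.75 ± 0.14 (adjusted p = 0.0101) whichever library was left out. All 4 libraries lay above every control. Aqp1, a water channel of capillaries, read 175, 118 and 188 against 342, 325, 369 and 141, with replicate 8 inside the control range. Aqp1 rose by 1.13 ± 0.15 (adjusted p = 5.44e-05) without replicate 8; with all 4 it passed as deposited (adjusted p = 0.00108) but not aligned (adjusted p = 0.0545). Angpt1, the Tie2 ligand angiopoietin-1, read 15.5, 12.8 and 14.9 against 44, 49.8, 41.2 and 37.9 and rose by 1.52 ± 0.19 (adjusted p = 0.00399) whichever library was left out, also in the 7 libraries alone and with sex as a covariate. Untreated mutants held 7.03 to 8.6 and wild-type hearts 25.9 to 52.6.

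Mitochondrial energy genes rose nearly without exception in replicates 5 to 7. Of 30 fatty acid oxidation genes 25 rose with all 4 libraries and 29 without replicate 8, of 25 pyruvate entry and TCA cycle genes 18 and 25, of 46 oxidative phosphorylation genes 30 and 46, and of 21 amino acid catabolism genes 20 and 20. In these 4 lists 0 members fell in either fit. Their medians without replicate 8 were 1.53, 1.11, 1.17 and 1.47, beside 0.04 over all genes. Acaa2, the thiolase of the last step of fatty acid oxidation, stood at 249, 399 and 372 against 1937, 2088, 1597 and 296 and rose by 1.82 ± 0.53 (adjusted p = 0.0307) and by 2.48 ± 0.18 (adjusted p = 5.52e-07) without replicate 8. Echs1, the enoyl-CoA hydratase of the same cycle, read 234, 284 and 320.1 against 837, 963, 838 and 324 and rose by 1.30 ± 0.30 (adjusted p = 0.0173) and 1.66 ± 0.12 (adjusted p = 4.91e-07). Lpl, which frees fatty acids from lipoproteins at the vessel wall, read 1181, 1321 and 1373 against 4336, 3891, 4935 and 1587 and rose by 1.40 ± 0.32 (adjusted p = 0.017) and 1.76 ± 0.13 (adjusted p = 4.82e-07). Replicate 8 was above every control for Lpl and, by a little, for Echs1, whereas for Acaa2 it lay inside their range.

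Enzymes of the TCA cycle and the respiratory chain rose as well. Idh2, the mitochondrial isocitrate dehydrogenase that makes NADPH, stood at 782, 769 and 1058 against 3446, 3907, 3978 and 1135 and rose by 1.70 ± 0.37 (adjusted p = 0.0154). Cs, citrate synthase, the entry enzyme of the TCA cycle, stood at 464, 534 and 548 against 1494, 1461, 1380.2 and 489 and rose by 1.10 ± 0.31 (adjusted p = 0.0283) and 1.49 ± 0.09 (adjusted p = 1.25e-07). Ndufs4, a subunit of complex I, read 158, 169 and 158 against 396, 433, 403 and 155 and rose by 0.99 ± 0.28 (adjusted p = 0.027) and 1.34 ± 0.08 (adjusted p = 1.23e-07), although replicate 8 was below the lowest control. For these 3 genes replicates 5 to 7 lay above even the wild-type ranges, which were 2169 to 3087 for Idh2, 1029 to 1089 for Cs and 303 to 319 for Ndufs4. The same held for Acaa2, at 1134 to 1456 in wild-type hearts. Ppargc1a, the PGC-1alpha coactivator of mitochondrial genes, read 25.6, 22.3 and 31 against 61, 49.7, 74.9 and 28.6 and rose by 0.93 ± 0.25 (adjusted p = 0.0249).

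Amino acid and sugar enzymes followed in part. Bckdhb, a subunit of the branched-chain ketoacid dehydrogenase, stood at 35.4, 37.1 and 39.3 against 173, 184, 167 and 34.1 and rose by 1.62 ± 0.45 (adjusted p = 0.0262). Gpt, alanine aminotransferase, stood at 6.61, 6.55 and 8.88 against 112, 109.97, 83.9 and 7.79 and rose by 2.74 ± 0.68 (adjusted p = 0.0211). For both, every one of replicates 5 to 7 exceeded the wild-type hearts (80.5 to 88.5 and 61.9 to 66.2), and replicate 8 lay below or among the controls. Of 25 glycolysis and glycogen genes 9 rose and 2 fell with all 4, beside 12.6% and 11.7% of all genes. Without replicate 8, 14 rose and 3 fell, beside 26.8% and 22.1%. Eno3, the muscle enolase, read 568, 601 and 761 against 2840.3, 3183, 2625 and 508 and rose by 1.54 ± 0.49 (adjusted p = 0.0399).

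Some enzymes that the controls had at very low levels were present in replicates 5 to 7. Pfkfb1, which sets the level of fructose bisphosphate signals in liver and muscle, read 0.36, 1.65 and 0.994 against 26.2, 32.1, 16.7 and 0.765 and rose by 2.75 ± 0.76 (adjusted p = 0.0266). Fbp2, the muscle fructose bisphosphatase, read 1.4, 3.69 and 2.06 against 45.8, 49.2, 32.8 and 1.63 and rose by 2.72 ± 0.81 (adjusted p = 0.0326).

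Ion channel genes rose more often than they fell, 10 against 1 of 27 with all 4 and 18 against 1 without replicate 8. Of all genes, 12.6% rose and 11.7% fell with all 4, and 26.8% and 22.1% without replicate 8. Kcnj3, a subunit of the acetylcholine-gated potassium channel, stood at 0.75, 1.47 and 2.28 against 66.6, 47.6, 54.5 and 2.09 and rose by 3.50 ± 0.82 (adjusted p = 0.0183) and by 4.55 ± 0.24 (adjusted p = 5.03e-08) without replicate 8. Replicates 5 to 7 were above the wild-type hearts (41.8 to 46.4), and replicate 8 lay inside the control range. Kcnj2, which carries the inward rectifier current that holds the resting potential, read 14.4, 12.4 and 11.3 against 45.9, 39.2, 37.5 and 20.6. All 4 libraries lay above every control, and it rose by 1.38 ± 0.21 (adjusted p = 0.00703) whichever library was left out.

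Calcium handling genes rose in 5 cases and fell in 1 of 22 with all 4, beside 12.6% and 11.7% of all genes. Without replicate 8 the counts were 10 and 2, beside 26.8% and 22.1%. Atp2a2, the SERCA2 pump that refills the sarcoplasmic reticulum, read 3009, 3506 and 4338 against 11592, 10408, 10827 and 3319 and rose by 1.18 ± 0.38 (adjusted p = 0.0401) and 1.61 ± 0.13 (adjusted p = 1.08e-06). Its inhibitor phospholamban, Pln, read 3431, 3729.7 and 3607 against 8431, 9723, 8544 and 4097 and rose by 1.03 ± 0.28 (adjusted p = 0.0249) and 1.31 ± 0.12 (adjusted p = 3.05e-06), so the pump and its inhibitor rose together. After quantile normalization neither passed with all 4: the log2 change of Atp2a2 had an adjusted p = 0.0739 and the log2 change of Pln 0.146. Hrc, a calcium-binding protein of the same store, read 326, 340.2 and 494 against 1574, 1373, 1362 and 405 and rose by 1.46 ± 0.37 (adjusted p = 0.0221). Ryr2, the release channel, stood at 201, 214 and 304 against 403, 218, 354 and 202; the groups overlapped and it did not pass (0.26 ± 0.24, adjusted p = 0.44), but did as deposited (adjusted p = 0.0162).

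Of 15 genes in the intercalated disc list, 4 rose and 0 fell with all 4, beside 12.6% higher of all genes. They were Dsg2, Ctnna3 and 2 genes with other main roles, Lrrc4b and Efnb3. The other 11 did not pass, among them Gja1, Jup and Pkp2 (adjusted p = 0.447, 0.9 and 0.888). Lrrc4b, a synaptic adhesion protein, stood at 2.24, 5.56 and 2.5 against 63.5, 63, 73.1 and 6.25 and rose by 3.20 ± 0.66 (adjusted p = 0.014), with replicate 8 slightly above the controls. Efnb3, an ephrin ligand, stood at 9.06, 4.33 and 13.1 against 144, 172, 107 and 11 and rose by 3.05 ± 0.74 (adjusted p = 0.0202). Replicates 5 to 7 exceeded the wild-type hearts (41.8 to 97.6) for Efnb3. Of 5 Schwann cell and nerve markers tested, 0 passed with all 4 and 2 rose without replicate 8, where 26.8% of all genes rose.

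Stress response genes split. Of 26 members of the integrated stress and unfolded protein responses 12 fell and 1 rose with all 4, and 12 fell and 7 rose without replicate 8; the median was -0.33 aligned and 0.15 as deposited. Mthfd2, a mitochondrial folate enzyme, stood at 40.3, 63.6 and 32.7 against 1.76, 1.87, 2.9 and 32.4 and fell by 2.98 ± 0.70 (adjusted p = 0.0188). Asns, asparagine synthetase, stood at 15.4, 23.7 and 9.73 against 1.91, 1.62, 1.13 and 11.4 and fell by 2.11 ± 0.52 (adjusted p = 0.021). Both are targets of the stress factor ATF4, and replicate 8 lay at or near the low end of the controls. Herpud1, a membrane protein of endoplasmic reticulum degradation, read 125, 149.9 and 172 against 231, 303, 329.8 and 117. Its difference did not pass with all 4 (adjusted p = 0.11), but Herpud1 rose by 0.94 ± 0.14 (adjusted p = 0.000112) without replicate 8 and also passed as deposited (adjusted p = 0.00702). For the chaperone Hspa5 the log2 change of Hspa5 was 0.61 (adjusted p = 0.000837) without replicate 8 and 0.91 (adjusted p = 0.0122) as deposited, and did not pass with all 4 aligned (adjusted p = 0.114).

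Asns and Herpud1 are shown next to each other because both windows hold an amino acid response element, TGATGNAA, a motif bound by ATF4, while their levels moved apart. Capitals mark the match.
Asns, chr6:7693210-7693292, minus strand: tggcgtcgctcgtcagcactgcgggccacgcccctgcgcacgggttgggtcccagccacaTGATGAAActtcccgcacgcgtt
Herpud1, chr8:94386257-94386384, plus strand: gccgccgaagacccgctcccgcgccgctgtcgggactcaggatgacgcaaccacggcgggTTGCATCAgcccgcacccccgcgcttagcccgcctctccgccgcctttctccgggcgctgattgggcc
The match began 23 bases before the start site in Asns and 112 in Herpud1, where it reads on the opposite strand. Of 25 matched stress response genes 6 held it (24%), beside 2.81% of all matched promoters, 2.99% of genes higher without replicate 8 and 3.87% of those lower. Of these 6, Chac1, Trib3, Asns and Pck2 fell with all 4, Vldlr rose, and Herpud1 rose without replicate 8 or as deposited. The log2 change of Pck2 did not pass as deposited (adjusted p = 0.776). The list includes known ATF4 targets such as Asns and Chac1 by choice, so its share of 24% is no finding in itself. The 2 other motifs searched were TNAAGGTCA, the element of the estrogen-related receptors that drive mitochondrial genes, and CACGTG, the E-box of clock factors. TNAAGGTCA was in 0.894% of all matched promoters, 0.832% of those of higher genes and 0.7% of lower ones, and CACGTG in 11.8%, 10.6% and 11.5%.

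Chaperones and redox genes moved less evenly. Of 20 heat shock genes 10 fell and 1 rose with all 4 (median -0.53), but as deposited 2 fell and 2 rose (median -0.04). Hsph1, a large chaperone of the HSP110 family, stood at 252, 249.5 and 250.4 against 38.6, 51.9, 54.7 and 167 and fell by 1.92 ± 0.37 (adjusted p = 0.0118) whichever library was left out; wild-type hearts held 163 to 274, so replicates 5 to 7 lay under those as well. Of 24 oxidative stress genes 7 rose and 6 fell with all 4, beside 12.6% and 11.7% of all genes. Their median was -0.24 aligned and 0.24 as deposited. Gpx3, the secreted glutathione peroxidase, read 1475, 1459.7 and 1201 against 202, 242, 279 and 1032 and fell by 1.99 ± 0.43 (adjusted p = 0.0157). Sod2, the mitochondrial superoxide dismutase, read 187, 222 and 238 against 575, 569, 529 and 228 and rose by 1.05 ± 0.27 (adjusted p = 0.022). Replicate 8 lay under every control for Gpx3 and inside their range for Sod2.

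Of 20 p53 targets 6 fell and 1 rose with all 4, beside 11.7% lower and 12.6% higher of all genes, with a median of -0.37 aligned and 0.01 as deposited. Cdkn1a, the cell cycle inhibitor p21, stood at 95.9, 108 and 99.7 against 11.6, 18.8, 32 and 61.5 and fell by 1.93 ± 0.45 (adjusted p = 0.0183). Immediate early genes gave 3 lower and 0 higher of 27, shares at or under those of all genes. Without replicate 8 they gave 7 lower and 5 higher, beside 22.1% and 26.8% of all genes. Nr4a1, an orphan nuclear receptor of that class, read 29.1, 16.3 and 36.9 against 169.6, 146, 166 and 8.53. Replicates 5 to 7 were above every other library, wild-type (7.4 to 27.1) and untreated (10.3 to 17) included, and it rose by 2.58 ± 0.40 (adjusted p = 0.000195) without replicate 8. With all 4 the Nr4a1 difference passed as deposited (adjusted p = 0.0263) and not aligned (adjusted p = 0.188).

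Of 23 cell cycle genes 8 fell and 0 rose with all 4, and 15 fell and 2 rose without replicate 8, but as deposited 0 fell and 1 rose with all 4, and with sex as a covariate 0 passed without replicate 8. Top2a, a topoisomerase of dividing cells, read 6.65, 2.7 and 3.01 against 1.11, 1.83, 0.936 and 3.43 and did not pass with all 4 (-0.85 ± 0.30, adjusted p = 0.0549). Cenpf, a kinetochore protein, went the other way. It read 3.16, 2.24 and 1.76 against 13.3, 13.9, 4.65 and 0.54 and passed only without replicate 8, at 1.67 ± 0.35 (adjusted p = 0.0018), but not with sex as a covariate (adjusted p = 0.0711).

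Clock, ribosome and small RNA genes completed the lists. Of 22 clock genes 7 rose and 0 fell with all 4, beside 12.6% and 11.7% of all genes. Without replicate 8, 11 rose and 1 fell, beside 26.8% and 22.1%. The one that fell, the core clock gene Arntl, differed by -1.33 (adjusted p = 0.00442) and did not pass with all 4 (adjusted p = 0.0833). Tef, a clock output factor, stood at 58.4, 52.2 and 64.1 against 129, 115, 155 and 61.2 and rose by 0.90 ± 0.24 (adjusted p = 0.0239). Of 21 translation paralogs and ribosomal proteins, 1 rose and 1 fell with all 4, beside 12.6% and 11.7% of all genes. Rpl3l, the muscle form of ribosomal protein L3, stood at 35, 71.5 and 117 against 685, 746, 642 and 67.2 and rose by 2.52 ± 0.72 (adjusted p = 0.0288). The elongation factor Eef1a1 read 2543, 2607 and 2604 against 715, 936, 788 and 3066 and fell by 1.20 ± 0.39 (adjusted p = 0.0433), but did not pass as deposited (adjusted p = 0.237); near-identical copies of Eef1a1 in the genome can share its reads, so its level is uncertain. Its muscle paralog Eef1a2 read 1124, 1079 and 1509 against 1882, 2183, 1675 and 1026 and rose by 0.64 ± 0.15 (adjusted p = 0.00324) without replicate 8; with all 4 it passed as deposited (adjusted p = 0.0136) but not aligned (adjusted p = 0.202). Among 15 genes of the small RNA pathway, which a hairpin RNA uses, 2 rose and 0 fell, a share near the 12.6% of all genes. Drosha, the nuclear hairpin nuclease, was one of them, at 24.1, 22.5 and 30 against 42.5, 37.8, 44.9 and 25.6, a difference of 0.52 ± 0.17 (adjusted p = 0.042).

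**Figure D5:**
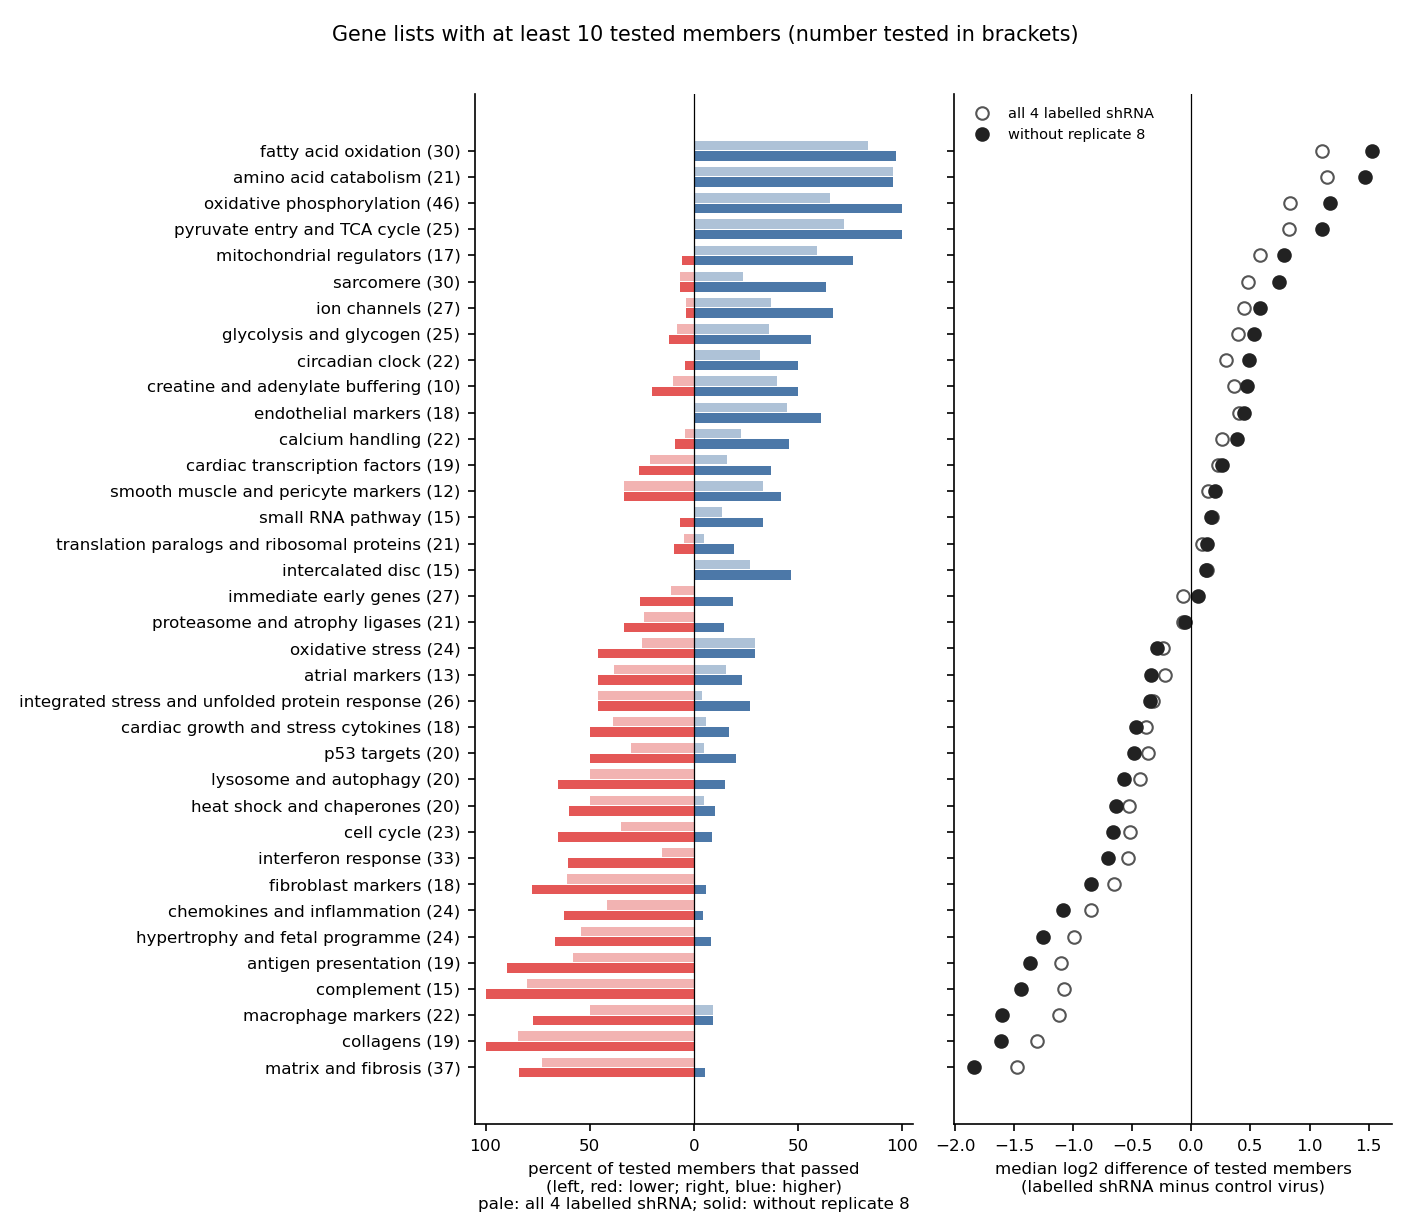
Left, percent of the tested members of each list that passed higher (blue) or lower (red), with all 4 libraries labelled shRNA (pale) and without replicate 8 (solid); right, the median log2 difference of the list's tested members. Energy lists are at the top, with medians up to 1.53, and matrix genes, collagens, macrophage markers and complement are at the bottom, with medians down to -1.84.

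A smaller set of genes also differed in replicate 8. With all 4 libraries, 859 genes passed with every library labelled shRNA above every control (6.62% of those tested) and 1015 with every one below (7.82%). Nxpe4, a gene of little-known function, stood at 0.185, 0.361 and 0.273 against 5.41, 7, 6.07 and 5.03 and rose by 2.43 ± 0.28 (adjusted p = 0.00349). Slc25a29, a mitochondrial carrier of basic amino acids, read 5.87, 5.94 and 6.47 against 33.7, 27.2, 27.3 and 14.3 and rose by 1.85 ± 0.23 (adjusted p = 0.00399). Scarb1, the HDL receptor, read 21.2, 19 and 19.8 against 34.5, 33.4, 33.5 and 29.7 and rose by 0.68 ± 0.10 (adjusted p = 0.00703). In Nxpe4 and Scarb1 replicate 8 lay close to the other 3, and in Slc25a29 between the groups.

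Of those that fell, Krt18, a keratin of simple epithelia, read 20.1, 14.5 and 22.6 against 0.792, 0.392, 0.548 and 3.58 and fell by 3.27 ± 0.39 (adjusted p = 0.00349). Dok5, an adaptor of receptor tyrosine kinases, read 8.27, 16.7 and 5.96 against 0.899, 0.298, 0.277 and 1.5 and fell by 2.64 ± 0.30 (adjusted p = 0.00349). Syndig1, a synapse protein, read 2.75, 3.89 and 2.85 against 0.253, 0, 0.117 and 0.237 and fell by 1.85 ± 0.21 (adjusted p = 0.00349). Wild-type hearts were at 0 to 0.969 for Krt18, as low as replicates 5 to 7. Star, which carries cholesterol into mitochondria for steroid synthesis, stood at 7.77, 10.1 and 13.4 against 1.95, 1.7, 2.92 and 3.23 and fell by 1.72 ± 0.23 (adjusted p = 0.00516). Untreated mutants held 17.2 to 30.8 of Star, above every control virus mutant, and wild-type hearts 2.58 to 2.8. Adamts19, a secreted metalloprotease, read 2.45, 2.87 and 2.38 against 0.624, 0.722, 0.67 and 0.81 and fell by 1.06 ± 0.14 (adjusted p = 0.00516). Fam20c, a kinase of secreted proteins, read 35, 34.9 and 38.8 against 16.9, 14.9, 15.3 and 20.6 and fell by 1.06 ± 0.13 (adjusted p = 0.00349), but did not pass as deposited (adjusted p = 0.0854).

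In each of these 9 genes replicate 8 lay beyond every control in the direction of the other 3, and each passed whichever single library was left out and with sex as a covariate. Nxpe4, Slc25a29, Krt18, Dok5, Syndig1, Star and Fam20c also passed in the 7 libraries alone, as did Angpt1 and Chac1. They were picked for being apart in all 4 libraries with the smallest p, so that pattern is no finding in itself. At the other end, Sprr1a, a small proline-rich protein of epithelia, read 51.8, 31.6 and 32.8 against 0.417, 0.412, 0 and 182. It was highest of all 7 in replicate 8 and near 0 in the other 3, and passed only without replicate 8, at -4.94 ± 0.32 (adjusted p = 2.38e-07), against an adjusted p = 0.107 with it.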

How the data were processed

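RNA from 13 polyA libraries was read as 100-base pairs, per the labels. The authors deposited a table of 23998 genes in FPKM, made with STAR 2.40, Cufflinks 2.2.1 and Cuffdiff on mm9 after FastQC 0.11.2, per the submitters' processing notes. Low values step in whole fragments, which gave each library's relative depth. The table holds no counts, so no count test was run.

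Each library was divided by a factor aligning the median log2 of 13875 genes above 0 in every library. The 12980 genes averaging 1 FPKM or more across the libraries were tested on log2(aligned FPKM + 1) with limma 3.58.1 in R 4.3.3 (trend, empirical Bayes, 4 groups, two-sided, Benjamini-Hochberg over all genes). A gene passed at an adjusted p under 0.05. The pipeline was tested on simulated data. Alternatives were each library left out, deposited values, quantile normalization, a pseudocount of 0.1, other filters, the 7 libraries alone, robust variances and sex (male above 5 FPKM of Ddx3y) as a covariate.

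The members and gene lists were chosen with earlier results of these data known. The genes named were a set of label checks, those with the largest changes, those apart in all 4 libraries with the smallest p, up to 4 per list with the smallest p and a fixed list of cardiac genes, thinned to those described. Tnnt2, Ttn, Actc1, Hspa5, Cd163, Timd4, Lyve1, Folr2, Chac1, Trib3, Pck2 and Vldlr were added after their values were seen. So were further list members named beside the counts of their lists. Promoter sequences are RefSeq's (GRCm38.p6). Some of the genes chosen by this rule are not reported here.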

Additional observations from a re-analysis of the deposited data

Results flagged for a closer look

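Of 99 of the genes described, 42 had replicate 8 apart from the other 3 libraries labelled shRNA by Dixon's criterion for 4 samples, and 1 had another replicate apart. Chance gives this in about 5% of groups, but these genes were chosen with the place of replicate 8 known, so the 42 are a description and are not read against that share. Levels that follow are aligned FPKM in replicate 8, which the controls and the other 3 libraries are set against in the report.

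Replicate 8 stood above replicates 5, 6 and 7 for Six3 at 34.5, Six3os1 at 7.5 and Xist at 70.3. Among hypertrophy and growth genes it was high for Nppa at 24300, Myh7 at 2480, Ankrd1 at 8740, Rcan1 at 420, Gdf15 at 156, Tgfb2 at 59, Ctgf at 592 and Uchl1 at 28.9. Matrix genes on which it was high were Col1a1 at 149, Col3a1 at 274, Timp1 at 42.5, Postn at 229, Mfap4 at 157, Thbs1 at 9.54 and Acta2 at 602. It was also high for the macrophage and chemokine genes Lgals3 at 54.7, Gpnmb at 29.7 and Ccl8 at 21.5. The others on the high side were Tpm2 at 28.1, Mthfd2 at 32.4, Asns at 11.4, Hsph1 at 167, Gpx3 at 1030, Krt18 at 3.58, Eef1a1 at 3070 and Sprr1a at 182.

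It stood below them at 0 for hMyl2, Ddx3y and Rn45s. Low energy and muscle genes were Cs at 489, Ndufs4 at 155, Bckdhb at 34.1, Atp2a2 at 3320, Tnnt2 at 8710, Sod2 at 228 and Rpl3l at 67.2. Ccl11 was low at 0.516, Lrrc4b at 6.25 and Nr4a1 at 8.53. Lyve1 was high in replicate 7, at 20 aligned FPKM. Groups of 3 libraries were not examined in this way.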

How the results depend on the processing

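No paired analysis was possible because the 2 groups compared share no replicate number (1 to 3 against 5 to 8). Leaving out 1 library moved the count of 3159 calls between 510 and 6348, that of higher genes between 208 and 3477 and that of lower genes between 298 and 2871, the top value in each case being without shRNA replicate 8. The list counts, distinct genes called in any list, were 376, 588 without replicate 8 and 378 as deposited. As deposited, 4330 were higher and 215 lower, and without replicate 8 there were 5113 calls, 3952 of them higher. The 7 libraries alone gave 32 calls (8 higher, 24 lower), and 5894 without replicate 8 (3263 higher, 2631 lower). Sex as a covariate gave 34 (11 higher, 23 lower). The cause of these moves was not tested. Quantile normalization (3176 calls), a pseudocount of 0.1 (3076), a mean of at least 5 FPKM (2739), no filter (2549) and robust variances (3153) stayed within 1.5 times.

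Of the same 99 genes, 78 passed with all 4 libraries, 92 without replicate 8 and 24 whichever single library was left out. Values that changed sign did not pass on either side: Ryr2 at -0.026 and Ttn at -0.078 with sex as a covariate, and Mylk3 at -0.086 and Eef1a2 at -0.040 after quantile normalization. As deposited with and without replicate 8, Myl7 was at 0.10 and 0.076, Actc1 at 0.32 and 0.25, and Lyve1 at 0.25 and 0.16. Leaving out 1 library moved Folr2 between -0.056 (without shRNA replicate 6) and 0.22 (without 7), and it was at -0.021 without replicate 8, also in the 7 libraries alone. The absolute depth is unknown, so no counting limit is given for values near 0.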
